A study of Mus musculus with 2 samples.

Results

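The genes described here are 45 of the Wnt pathway genes that act outside the cell or at its membrane: 19 Wnt ligands, 4 R-spondins, 10 Frizzled receptors, the co-receptors Lrp5 and Lrp6, the receptors Ror1, Ror2 and Ryk, the R-spondin receptors Lgr4, Lgr5 and Lgr6, and the inhibitors Kremen1, Kremen2, Apcdd1 and Sostdc1. They were picked by name, and all 45 were found among the 22054 genes of the deposited tables. Other such genes, among them the secreted antagonists, are not members and are described further below. RNA was measured in lower molar mesenchyme taken by laser capture microdissection from mouse embryos of mixed background at embryonic day 14.5. One library came from homozygous mutants (Osr2-/-, n = 1) and one from heterozygous controls (Osr2+/-, n = 1), each from the pooled tissue of 3 samples. The study asked how transcript levels in the tooth mesenchyme differ when Osr2 is lost, and by their label the controls, too, carry 1 mutant allele. The title of the series calls the control wild type, whereas its sample label and the design text say Osr2+/-. The label is followed here, and the files do not settle which is right, so every fold and the control level of Osr2 refer to a control of that labelled genotype. The part of Osr2 that the allele lacks and the sex of the embryos are not given in the sources used here.

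Wnt ligands are secreted lipid-modified proteins that bind Frizzled receptors. Together with Lrp5 or Lrp6 the bound Frizzled stabilises beta-catenin, which acts with Tcf and Lef factors on target genes, while Ror1, Ror2 and Ryk carry signals of Wnt5a type that do not need beta-catenin. R-spondins bind Lgr receptors and raise the amount of Frizzled at the membrane by holding back the ligases Znrf3 and Rnf43. In the tooth germ, Wnt signals pass between epithelium and mesenchyme, and loss of the Lrp-binding inhibitor Sostdc1 gives extra teeth in mice. Osr2, a transcription factor made in the dental mesenchyme, limits the tooth field on the tongue side of the molars.

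With 1 library per genotype there is no replicate check and no test, and every difference below is between these 2 libraries. The mutant library was the deeper one (about 34.3 M mapped reads, control 5.38 M). Read numbers are estimates, and the 95% intervals drawn from them cover counting error only and are not adjusted for the number of genes. Osr2 itself was at 9.16 RPKM in the mutant library and 38.7 RPKM in the control library, 4.23-fold lower (interval 3.69 to 4.84). RPKM counts reads relative to transcript length in kilobases and to the mapped reads of the library. All 15 dental mesenchyme markers were above 1 RPKM in both libraries, with Msx1 at 36.8 RPKM in the mutant and 40.0 RPKM in the control. The epithelial genes Krt5 (16.3 RPKM in the mutant and 13.9 RPKM in the control) and Krt14 (8.28 RPKM in the mutant and 5.80 RPKM in the control) were also above 1 RPKM in both libraries. The libraries also differed in sex-linked RNA, with Ddx3y listed at 0 in the mutant and at 3.28 RPKM in the control, and none of the 45 genes lies on a sex chromosome. In bulk tissue, fewer cells of a type and less RNA per cell cannot be told apart.

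Most of the receptors, but few of the ligands, were expressed in this tissue. Of the 45 genes, 23 reached 1 RPKM in at least 1 library, among them 8 of 10 Frizzleds and 2 of 19 Wnt ligands. No member was 1.5-fold apart on the log2(RPKM + 1) scale, on which 249 of all 9779 genes tested (2.55%) were higher in the mutant by that much and 349 (3.57%) lower. Past 2-fold lay 0.89% of all genes on the higher side and 0.798% on the lower side. That scale understates differences of low genes, and with a pseudocount of 0.1 RPKM, 2 members (Wnt2 and Fzd10) were at least 1.5-fold lower, beside 8.51% of all genes. With TPM values of the same genes, the same 2 members were, beside 7.13% of all genes. The 1 added to TPM is worth much less than 1 RPKM, so this setting is close to the smaller pseudocount. With the filter itself set on TPM, which lets in 11 more members at low read numbers, 6 of 34 members were at least 1.5-fold lower and 3 at least 1.5-fold higher, beside 11.6% and 12.1% of all genes. With the pseudocount of 1, the log2 ratios ran from -0.53 for Wnt2 to 0.36 for Lgr4, with a median of -0.09 over the 23 members and -0.05 over all genes. A counting interval of the fold above 1 was found for 3 of the 23 members (13.0%), against 7.87% of all genes, and an interval below 1 for 7 (30.4%), against 15.9% of all genes. The members also held more reads than the average gene, with a median of about 104 reads in the control against 57 over all genes tested, and more reads give narrower intervals. If a read covered 2 times the bases assumed, the intervals of Wnt2, Fzd10, Fzd3, Ror1 and Ror2 would include 1, leaving 2 members above 1 and 3 below 1. All intervals use 1 depth ratio and were not recomputed on the TPM scale or after centring. The RPKM of all genes summed to 0.969 times as much in the mutant as in the control. Calls near 1 could therefore change with the scaling. The interval of Ror1 ends at 0.976, and those of Wnt5a and Fzd1 start at 0.971 and 0.981.

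**Figure D1:**
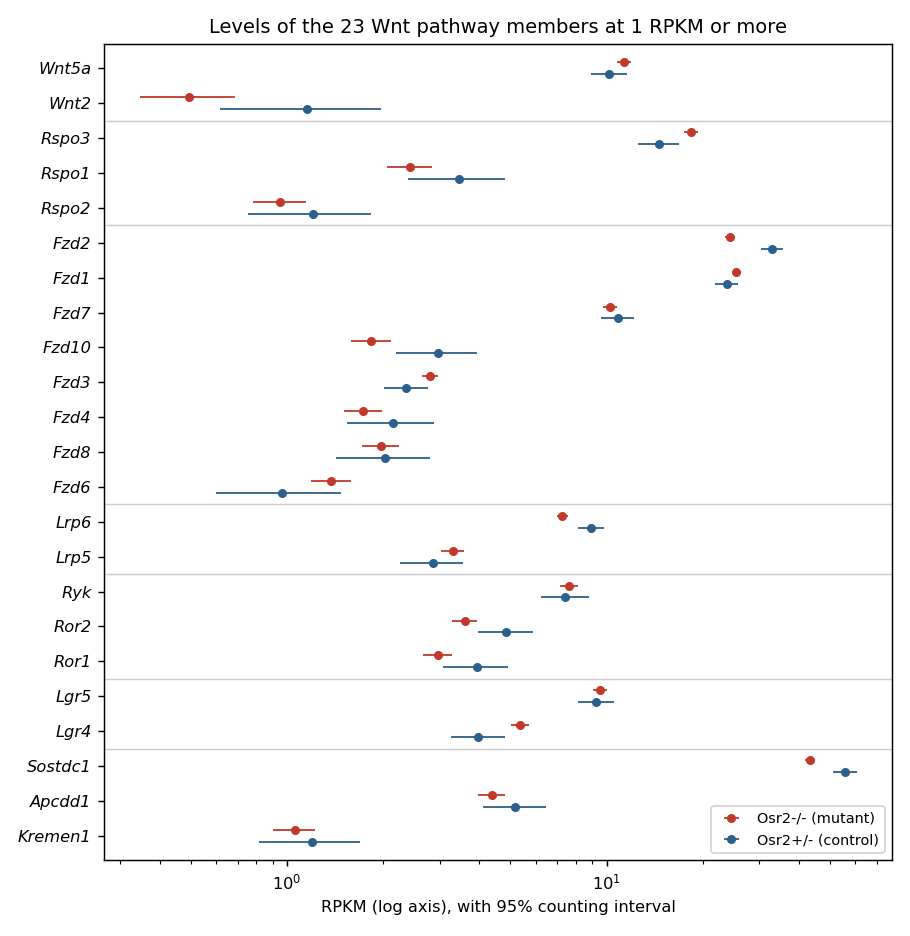
Level of each of the 23 members with at least 1 RPKM in a library, in RPKM on a log axis, in the mutant (red, upper point) and control (blue, lower point) library, with 95% counting intervals and 1 library per genotype. Sostdc1, Fzd1, Fzd2 and Rspo3 lie highest in both libraries, and the mutant and control points of most genes lie close together.

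Wnt5a was the main Wnt ligand in both libraries. This ligand, which is expressed in jaw and tooth mesenchyme and signals largely without beta-catenin, was at 11.3 RPKM in the mutant (interval 10.8 to 11.9) and 10.2 RPKM in the control (8.90 to 11.6), a fold of 1.12 (0.97 to 1.28). It made up 80.7% of the summed ligand level of 14.1 RPKM in the mutant and 70.0% of 14.5 RPKM in the control. In mm9, Wnt5a spans bases 29318659 to 29338620 of chromosome 14. Wnt2, a ligand known from lung mesenchyme, was the other ligand above the filter, at 0.495 RPKM in the mutant (about 36 reads) and 1.15 RPKM in the control (about 13 reads). It was 2.33-fold lower (1.12 to 4.45), the lowest fold among the 23 members, and lies on chromosome 6 from 17938940 to 17980445.

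The other 17 ligands were below 1 RPKM in both libraries, and their folds rest on few control reads. Wnt1, Wnt3, Wnt3a, Wnt7a, Wnt8a and Wnt8b were listed at 0 in both libraries. For these 6 genes, 0 reads allow levels of up to 0.0259 to 0.0576 RPKM in the mutant and 0.165 to 0.367 RPKM in the control, taking 3 reads as the limit. Wnt2b, the closest relative of Wnt2, was at 0.482 RPKM in the mutant and 0.860 RPKM in the control, a fold of 0.560 (0.313 to 0.996). Wnt5b, the closest relative of Wnt5a, was at 0.215 RPKM in the mutant and 0.588 RPKM in the control, a fold of 0.366 (0.136 to 0.892) on about 7 control reads. Both therefore lay on the same side as Wnt2, with intervals that end under 1, that of Wnt2b only just. Of the 22 members below the filter, 3 had an interval below 1 and 2 above 1. The share over all genes below the filter was not computed. Such calls can rest on very few reads, as for Wnt16, whose interval ends at 0.835 on about 2 control reads.

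Wnt4, Wnt6, Wnt7b, Wnt10a and Wnt10b, ligands known from oral and dental epithelium, were all low here. Wnt7b was at 0.617 RPKM in the mutant and 0.404 RPKM in the control, a fold of 1.53 (0.733 to 4.10). Wnt6 was at 0.232 RPKM in the mutant on about 16 reads and listed at 0 in the control, where 0 reads allow up to 0.270 RPKM. Wnt10a was at 0.0774 RPKM in the mutant and 0.107 RPKM in the control, and Wnt10b at 0.0577 RPKM in the mutant and listed at 0 in the control. Wnt4 was at 0.0253 RPKM in the mutant and 0.167 RPKM in the control, on about 1 read in each. None of these 5 ligands had a counting interval that excluded 1. Of the remaining ligands, Wnt9a was at 0.333 RPKM in the mutant and 0.521 RPKM in the control, and Wnt11 at 0.176 RPKM in the mutant and 0.275 RPKM in the control. Wnt16 and Wnt9b were listed at 0 in the mutant, and at 0.236 and 0.0397 RPKM in the control on about 2 reads and 1 read.

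Of the R-spondins and Lgr receptors tested, 1 of 3 and 1 of 2 had an interval above 1, against 7.87% of all genes. The others included 1. Rspo3, a secreted agonist that strengthens Wnt signals, was at 18.4 RPKM in the mutant (17.5 to 19.3) and 14.6 RPKM in the control (12.6 to 16.8), 1.26-fold higher (1.08 to 1.47). It made up 84.3% of the summed R-spondin level in the mutant and 75.8% in the control, and lies on chromosome 10 from 29172913 to 29255673. Rspo1 was at 2.42 RPKM in the mutant and 3.45 RPKM in the control, 1.43-fold lower with an interval that includes 1 (0.953 to 2.08). Rspo2 was at 0.953 RPKM in the mutant and 1.21 RPKM in the control, a fold of 0.790 (0.488 to 1.29). Rspo2 lies 7.62 Mb from Osr2 on chromosome 15, so a haplotype linked to the mutant allele cannot be told apart from genotype there. Rspo4 was listed at 0 in the control and was at 0.0415 RPKM in the mutant on about 3 reads. Rspo3 outweighed Rspo1 by 7.59 times in the mutant and 4.23 times in the control.

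Lgr4, a receptor for all R-spondins, was at 5.36 RPKM in the mutant (5.02 to 5.71) and 3.97 RPKM in the control (3.26 to 4.79), 1.35-fold higher (1.11 to 1.66). Its level in the mutant lies above the whole control interval. Lgr5, a related receptor that marks stem cells in several epithelia, was at 9.57 RPKM in the mutant and 9.27 RPKM in the control, a fold of 1.03 (0.899 to 1.19). Lgr6 was below the filter, at 0.842 RPKM in the mutant and 0.380 RPKM in the control, a fold of 2.22 (1.10 to 5.99) on about 7 control reads. The sum over the 3 receptors was 15.8 RPKM in the mutant and 13.6 RPKM in the control, and Lgr5 was the most abundant of them in both.

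**Figure D2:**
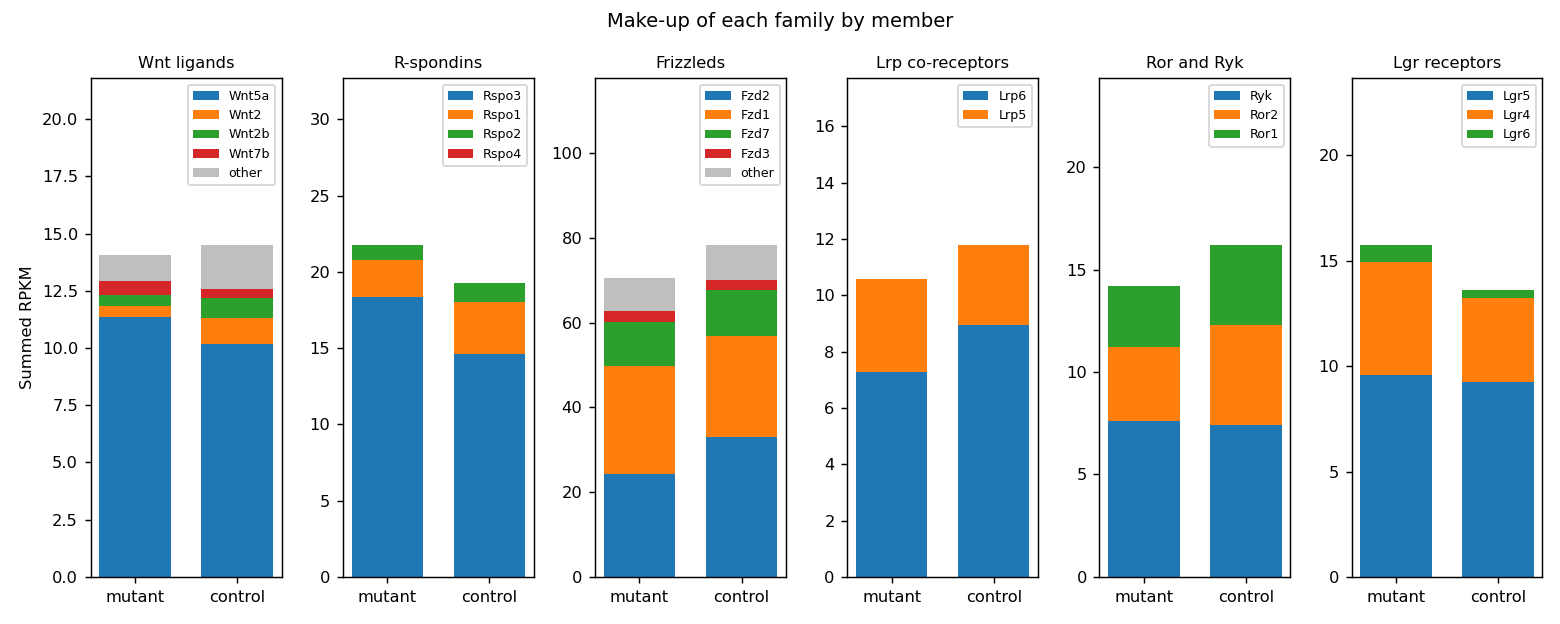
Summed RPKM of each family in the mutant (left bar) and control (right bar) library, split by member, with families on their own axes that start at 0 and no error shown. One gene holds most of the ligand sum (Wnt5a, 80.7% in the mutant and 70.0% in the control) and of the R-spondin sum (Rspo3, 84.3% and 75.8%).

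Among the Frizzleds, the 3 genes Fzd1, Fzd2 and Fzd7, which form 1 subgroup of closely related receptors, held 85.2% of the summed level in the mutant and 86.2% in the control. Fzd2 was at 24.3 RPKM in the mutant (23.5 to 25.2) and 33.0 RPKM in the control (30.5 to 35.7), 1.36-fold lower (1.24 to 1.48), with intervals of the levels that do not overlap. It lies on chromosome 11 from 102465745 to 102469372. Fzd1 was at 25.5 RPKM in the mutant (24.7 to 26.3) and 23.7 RPKM in the control (21.8 to 25.8), a fold of 1.07 (0.981 to 1.17). Fzd2 was thus 0.955 times the level of Fzd1 in the mutant, where their intervals overlap, and 1.39 times that level in the control, where they do not. Fzd7 was at 10.2 RPKM in the mutant and 10.8 RPKM in the control, a fold of 0.945 (0.833 to 1.08).

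The other Frizzleds were below 4 RPKM and went both ways. Fzd10 was at 1.83 RPKM in the mutant (1.58 to 2.11) and 2.97 RPKM in the control (2.18 to 3.94), 1.62-fold lower (1.16 to 2.25), and lies on chromosome 5 from 129106981 to 129109968. Fzd3, a receptor of axon guidance and tissue polarity, was at 2.80 RPKM in the mutant and 2.36 RPKM in the control, a fold of 1.19 (1.003 to 1.402) whose interval barely excludes 1. Fzd6, its closest relative, was at 1.37 RPKM in the mutant and 0.963 RPKM in the control, a fold of 1.43 (0.912 to 2.37). Of its 2 transcript rows, that with the higher RPKM summed over both libraries gave a fold of 2.50 (1.30 to 4.89). Both rows were at 0.481 RPKM in the control, so the mutant value alone picked that row. The other row went the other way, at 0.171 RPKM in the mutant. Fzd6 lies 3.60 Mb from Osr2 on chromosome 15, so the limit given for Rspo2 holds for it too. Fzd4, the norrin receptor, was at 1.73 RPKM in the mutant and 2.14 RPKM in the control. Fzd8 was at 1.97 RPKM in the mutant and 2.02 RPKM in the control. Fzd5 was below the filter, at 0.685 RPKM in the mutant and 0.266 RPKM in the control, a fold of 2.58 (1.34 to 5.36) on about 10 control reads. Fzd9 was at 0.0598 RPKM in the mutant and 0.0991 RPKM in the control.

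**Figure D3:**
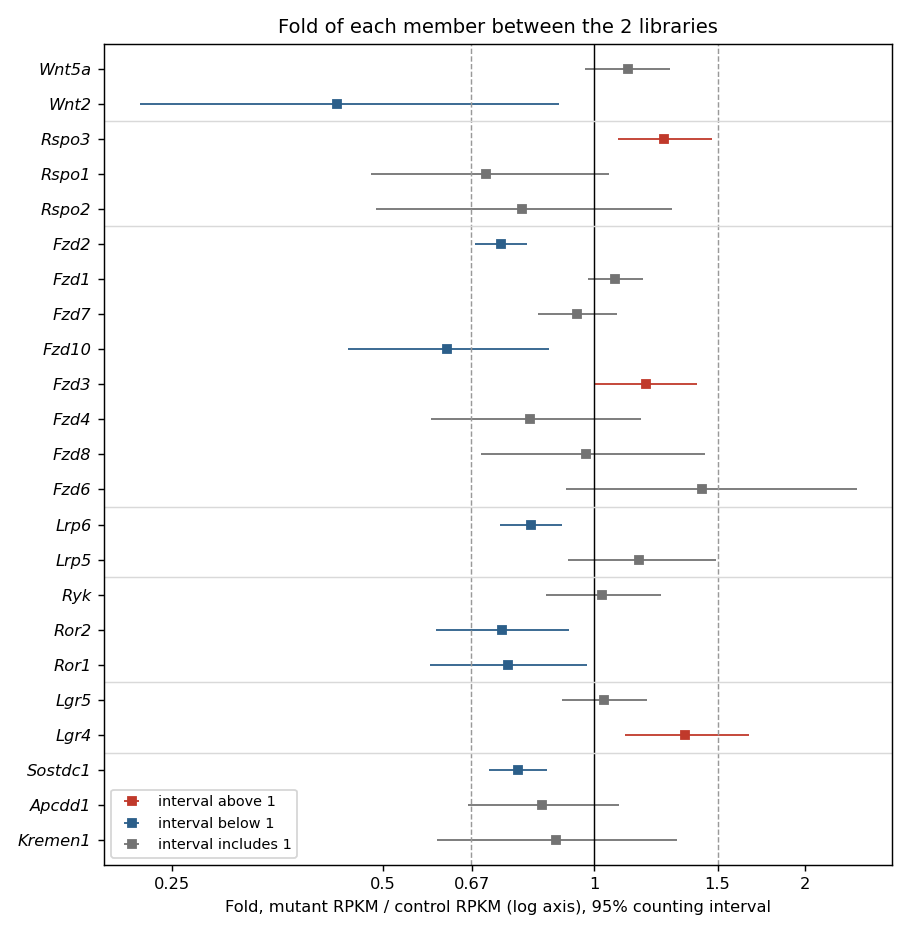
Fold of each of the 23 members, mutant RPKM over control RPKM, on a log axis, with 95% counting intervals and dashed lines at 1.5-fold in each direction. Intervals of 3 genes (red) lie above 1 and those of 7 genes (blue) below 1, against 7.87% and 15.9% of all genes.

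Some receptor genes are listed with 2 transcripts of nearly equal length, and the split between them moved more than the sum. Fzd6 had 1.203 RPKM for the transcript of 4081 bases and 0.171 RPKM for that of 4085 bases in the mutant, against 0.481 RPKM for each in the control. Fzd5 had 0.360 RPKM for the transcript of 6807 bases and 0.324 RPKM for that of 6914 bases in the mutant, against 0.265 RPKM for the first and nearly 0 for the second in the control. Ryk, a receptor with an inactive kinase domain that binds Wnts, had 4.60 RPKM for the transcript of 3258 bases and 3.03 RPKM for that of 3267 bases in the mutant, against 5.22 RPKM for the first and 2.21 RPKM for the second in the control. The sum for Ryk was 7.63 RPKM in the mutant and 7.44 RPKM in the control, a fold of 1.03 (0.855 to 1.25). Reads are shared between such transcripts by an estimate, which the files give without an error, so these splits are descriptions of the deposited values.

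**Figure D4:**
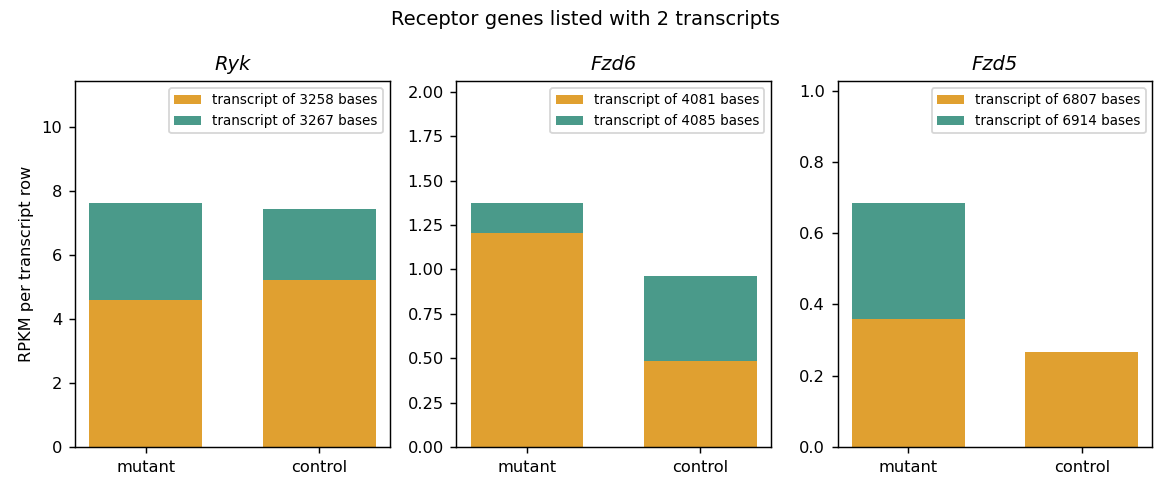
RPKM of each transcript row of Ryk, Fzd6 and Fzd5 in the mutant (left bar) and control (right bar) library, stacked on axes that start at 0, with no error given in the files. The sum of Ryk is nearly equal in both libraries (7.63 and 7.44 RPKM), while the 2 rows of Fzd6 are equal in the control and unequal in the mutant.

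Of the 5 co-receptors and Wnt5a receptors, Lrp6, Ror1 and Ror2 had intervals below 1, against 15.9% of all genes. They had about 451, 75 and 104 control reads, against a median of 57 over all genes tested. If a read covered 2 times the bases assumed, the intervals of Ror1 and Ror2 would include 1. Lrp6, which pairs with Frizzled to stabilise beta-catenin, was at 7.27 RPKM in the mutant (6.98 to 7.57) and 8.95 RPKM in the control (8.15 to 9.82), 1.23-fold lower (1.11 to 1.36). Lrp5 was at 3.30 RPKM in the mutant and 2.85 RPKM in the control, a fold of 1.16 (0.918 to 1.49). Lrp6 was the more abundant of the pair in both libraries, by 2.20 times in the mutant and 3.14 times in the control. Ror2, a receptor tyrosine kinase for Wnt5a, was at 3.59 RPKM in the mutant (3.28 to 3.93) and 4.86 RPKM in the control (3.97 to 5.89), 1.35-fold lower (1.09 to 1.68). Its relative Ror1 was at 2.96 RPKM in the mutant (2.66 to 3.28) and 3.92 RPKM in the control (3.08 to 4.92), 1.33-fold lower (1.02 to 1.71). The 2 Ror genes kept nearly the same ratio to each other, with Ror2 at 1.22 times Ror1 in the mutant and 1.24 times in the control.

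Of the 3 inhibitors tested, 1 had an interval below 1, against 15.9% of all genes, and the other 2 included 1. Sostdc1, a secreted protein that binds Lrp5 and Lrp6 and also BMPs, was the most abundant member of all, at 43.3 RPKM in the mutant and 55.6 RPKM in the control, with counting intervals that do not overlap. It was 1.28-fold lower (1.17 to 1.41), and lies on chromosome 12 from 37040756 to 37045039. Apcdd1, a membrane inhibitor that binds Wnt and Lrp5, was at 4.36 RPKM in the mutant and 5.19 RPKM in the control, 1.19-fold lower (0.920 to 1.52). Kremen1, which acts with Dkk proteins on Lrp6, was at 1.06 RPKM in the mutant and 1.196 RPKM in the control. Kremen2 was below the filter, at 0.501 RPKM in the mutant and 0.777 RPKM in the control. Summed over the family, the inhibitors stood at 49.2 RPKM in the mutant and 62.8 RPKM in the control.

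Upstream sequence was compared for the members listed in RefSeq's promoter table for GRCm38.p6, which holds 29 of the 45. The 250 bases before the start are shown for Ror1, Ror2, Wnt2 and Lgr4, since the Ror genes and Wnt2 were lower and Lgr4 was higher in the mutant. Capitals mark the GC box, GGGCGG or its reverse complement CCGCCC, a site of Sp-type factors. The genes shown and the 5 motifs searched were chosen after the values of the members and a first motif search had been seen.
Ror1 (chr4:100095541-100095790, + strand): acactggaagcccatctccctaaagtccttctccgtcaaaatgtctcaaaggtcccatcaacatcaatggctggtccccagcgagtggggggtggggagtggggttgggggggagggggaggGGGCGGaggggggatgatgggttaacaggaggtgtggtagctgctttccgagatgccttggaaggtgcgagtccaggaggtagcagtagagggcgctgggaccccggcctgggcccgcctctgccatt
Ror2 (chr13:53286125-53286374, - strand): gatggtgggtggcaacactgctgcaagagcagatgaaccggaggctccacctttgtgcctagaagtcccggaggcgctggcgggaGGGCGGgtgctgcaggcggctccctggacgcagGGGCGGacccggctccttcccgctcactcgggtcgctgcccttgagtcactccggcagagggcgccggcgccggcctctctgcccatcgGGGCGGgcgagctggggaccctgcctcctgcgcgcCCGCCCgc
Wnt2 (chr6:18030446-18030695, - strand): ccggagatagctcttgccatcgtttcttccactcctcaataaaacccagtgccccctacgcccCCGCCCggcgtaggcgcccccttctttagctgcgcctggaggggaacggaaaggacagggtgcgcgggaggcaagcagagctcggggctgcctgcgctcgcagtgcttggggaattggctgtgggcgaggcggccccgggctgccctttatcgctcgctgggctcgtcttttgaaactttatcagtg
Lgr4 (chr2:109917397-109917646, + strand): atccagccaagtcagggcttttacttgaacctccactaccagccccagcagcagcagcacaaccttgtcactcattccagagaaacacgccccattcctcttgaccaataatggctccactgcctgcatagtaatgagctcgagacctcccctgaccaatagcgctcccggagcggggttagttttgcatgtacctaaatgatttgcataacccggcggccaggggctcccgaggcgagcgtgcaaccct
The window of Ror2 held 4 GC boxes, those of Ror1 and Wnt2 held 1 each, and that of Lgr4 held 0. Some genes have several windows. For the 4 genes shown, any window on another chromosome was left out above but counts in the totals that follow. A GC box was found in 24 of the 32 windows of the 29 genes (75%), against 32.7% of all 32851 windows of that length. Counted by gene, it was found for 23 of the 29 (79.3%), against 35.4% of all 27025 genes in the table. Of the 10 listed genes that passed the 1 RPKM filter, 7 held it. The letters CAGTAGC, which belong to sites of the Odd-skipped family that includes Osr2, were found on neither strand in any of the 29 genes, and for 3.46% of all genes in the table. The Tcf and Lef letters CTTTGAT were found for Wnt5b and Wnt11 and for 3.72% of all genes, while the form CTTTGAA was found for 0 of the 29 genes and for 5.19% of all genes. The TATA letters TATAAA were found for Fzd1, Ryk and Wnt11, which is 10.3% of the 29 genes, and for 14.3% of all genes. These are matches of letters in 1 short window and say nothing of binding.

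The other genes of the pathway were described by lists chosen with earlier results of these data known. Their counts stand beside the shares over all genes given above, 7.87% with an interval above 1 and 15.9% below 1, and lists with more reads have narrower intervals. In the list of planar cell polarity and the Wnt5a branch, 6 of 15 genes tested had an interval below 1 and 1 gene had one above 1, with a median log2 ratio of -0.13 and a median of about 83 control reads. Vangl2, a core polarity protein gene that acts downstream of Wnt5a and Ror2, was at 3.54 RPKM in the mutant and 6.82 RPKM in the control, 1.93-fold lower (1.49 to 2.48). Prickle1, another core polarity gene, was at 5.72 RPKM in the mutant and 7.82 RPKM in the control, 1.37-fold lower (1.15 to 1.61). Camk2d, a calcium-dependent kinase gene, was 1.80-fold lower (1.46 to 2.21), and Mapk8, the gene of a Jun kinase, had a fold of 0.713 (0.566 to 0.910).

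In the list of ligand secretion and processing, 2 of 6 genes tested (Gpc6 and Gpc3) had an interval below 1, the other 4 included 1, and there was a median log2 ratio of -0.27. Gpc6 and Gpc3, cell surface proteoglycan genes, were 1.68-fold (1.60 to 1.76) and 1.26-fold (1.19 to 1.33) lower. Wls, the carrier that brings Wnts to the membrane, was at 7.03 RPKM in the mutant and 8.35 RPKM in the control, 1.19-fold lower with an interval that includes 1 (0.970 to 1.44). Porcn, which attaches the lipid to Wnts, was at 1.83 RPKM in the mutant and 2.51 RPKM in the control, with an interval that includes 1.

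Of 12 genes of the destruction complex and beta-catenin, 10 had an interval that includes 1, and the median log2 ratio was -0.02. Ctnnb1, the beta-catenin gene, was at 72.5 RPKM in the mutant and 66.8 RPKM in the control, 1.09-fold higher (1.02 to 1.15). Btrc, a ubiquitin ligase subunit gene, was 1.58-fold lower (1.25 to 1.99), and the intervals of the kinase genes Csnk1a1 and Gsk3a included 1. Of 16 Tcf and Lef factors, partners and feedback targets, 3 had an interval above 1 (18.8%) and 3 below 1 (18.8%), with a median log2 ratio of -0.02 and a median of about 157 control reads. Lef1, which partners beta-catenin on target genes, was at 11.7 RPKM in the mutant and 6.56 RPKM in the control, 1.78-fold higher (1.43 to 2.24). Tcf7, its relative, was at 3.48 RPKM in the mutant and 2.02 RPKM in the control, 1.72-fold higher (1.14 to 2.76). Ccnd1, the cyclin D1 gene, was 1.34-fold higher (1.14 to 1.59), and Bcl9l, a beta-catenin cofactor gene, 1.34-fold lower (1.13 to 1.59). The list named receptor turnover also holds receptor-linked genes without a role in turnover, such as Lrp4. Of its 4 genes tested, Lrp4 was 1.71-fold higher (1.08 to 2.36). Mesdc2, a chaperone gene for Lrp5 and Lrp6, was 1.23-fold lower (1.01 to 1.49), while Fam123b and Znrf3 included 1. Znrf3, the ligase held back by R-spondins, was at 1.551 RPKM in the mutant and 1.35 RPKM in the control. Among 8 secreted antagonists tested, 5 had an interval below 1 while the other 3 included 1, with a median log2 ratio of -0.39 and a median of about 423 control reads. Sfrp2, which binds Wnts, was at 55.2 RPKM in the mutant and 207.6 RPKM in the control, 3.76-fold lower (3.56 to 3.96). Dkk2, which binds Lrp5 and Lrp6, was at 6.27 RPKM in the mutant and 14.5 RPKM in the control, 2.31-fold lower (2.01 to 2.65). The folds of the Wnt-binding genes Sfrp1 and Wif1 were 0.622 (0.571 to 0.678) and 0.663 (0.511 to 0.876).

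**Figure D5:**
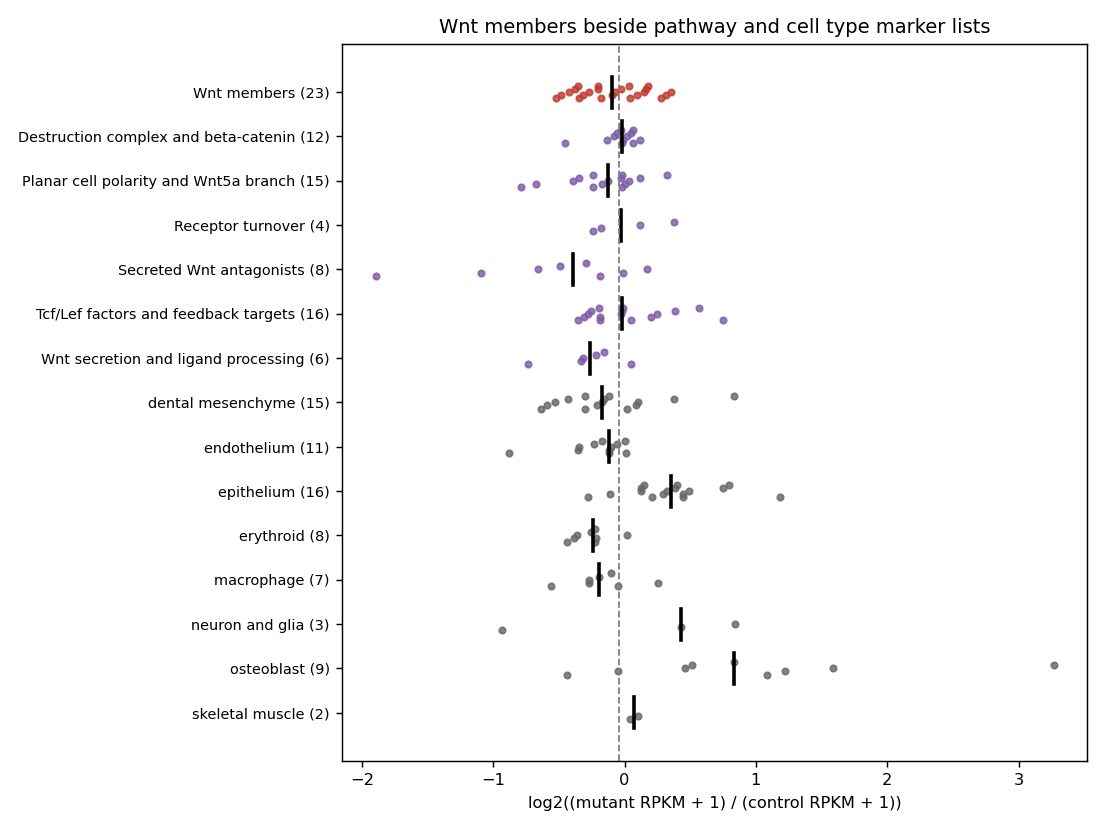
Log2 ratio, (mutant RPKM + 1) over (control RPKM + 1), of each gene tested in the Wnt members (red), other pathway lists (purple) and cell type marker lists (grey), with the number tested in brackets, list medians as black bars and the median of all genes as a dashed line. The members spread over a narrower range than the antagonists or the osteoblast genes, and the epithelial markers lie mostly to the right.

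Marker lists of several cell types are set beside the same shares over all genes, 7.87% above 1 and 15.9% below 1. Of 15 dental mesenchyme markers, 9 had an interval below 1 and 1 (Runx2, which the osteoblast list also holds) above 1. These genes had a median of about 325 control reads, against 57 over all genes tested, which narrows their intervals. They had a median log2 ratio of -0.17 and a summed level of 490 RPKM in the mutant and 579 RPKM in the control. The fold of their sums was 0.848, against 0.740 for Ror2, 0.754 for Ror1, 0.737 for Fzd2 and 0.812 for Lrp6. The rest of the tested members with an interval below 1 had folds of 0.778 (Sostdc1), 0.618 (Fzd10) and 0.430 (Wnt2). Other members went the other way, with 1.12 for Wnt5a, 1.07 for Fzd1 and 1.26 for Rspo3. Of the 23 Wnt members tested, 14 had a log2 ratio below 0 and 9 above 0. Of 16 epithelial markers tested, 9 had an interval above 1 while the other 7 included 1, with a median log2 ratio of 0.35. The 28 epithelial markers in the table summed to 77.3 RPKM in the mutant and 56.6 RPKM in the control. Shh, Cldn7 and Rab25 were listed at 0 in the control. They had only about 16 to 18 reads in the deeper mutant library, and their intervals include 1. The fold of the epithelial sum was 1.37. Tested members with an interval above 1 had folds of 1.35 (Lgr4), 1.26 (Rspo3) and 1.19 (Fzd3). Those below the filter had 2.58 (Fzd5) and 2.22 (Lgr6). Folds were 1.43 for Fzd6 and 1.53 for Wnt7b. The intervals of Fzd6 and Wnt7b include 1. Of the other ligands known from oral and dental epithelium, Wnt10a had a fold of 0.726 and Wnt4 of 0.151. Both rest on about 1 control read with intervals that include 1, and Wnt6 and Wnt10b were listed at 0 in the control. Of 9 osteoblast genes tested, 7 had an interval above 1, 1 included 1 and 1 (Phex) was 1.69-fold lower (1.25 to 2.26), and the list summed to 92.9 RPKM in the mutant and 53.9 RPKM in the control. Of 11 endothelial genes tested, 3 had an interval below 1 while the other 8 included 1. Intervals below 1 were also found for 6 of 8 erythroid and 2 of 7 macrophage genes, and 0 of 2 skeletal muscle genes had an interval that excluded 1. Of 3 neuron and glia genes, 2 were above 1 and 1 below 1. The part of these cell types in the values of the Wnt genes was not tested.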

How the data were processed

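Total RNA of laser-captured tissue was made into cDNA with the NuGEN Ovation RNA-Seq v2 kit, per the labels' protocols. TopHat 1.4.1, Bowtie 0.12.7 and mm9 were used per the submitters' processing notes, and Cufflinks (version not stated) per the file names. The authors deposited RPKM and coverage (a signal, the mean reads over each base, not scaled for depth) for 28107 RefSeq transcript rows. The 2 files list these in a different order, so rows were joined on transcript, gene, locus and length. The file names give each library its own lane, so lane and genotype are confounded and cannot be told apart. The 54 rows (18 genes, 0 of them members) flagged as failed or as having too much data were left out, and RPKM was summed per gene.

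Libraries were compared by log2 of (mutant RPKM + 1) / (control RPKM + 1), over 9779 genes with at least 1 RPKM in a library. Reads were estimated as coverage times length divided by 44.3 bases, the median product between 20 and 66 bases, averaged over both libraries. Only 23.1% of low values in the mutant and 24.1% in the control came within 0.1 of a whole read, where an even spread would give 20%. The read size therefore has weak support, and no model across genes was fitted. Levels have 95% Poisson intervals, and folds, which are plain ratios of RPKM, have 95% Clopper-Pearson intervals scaled by a depth ratio of 6.38. Both treat the estimated reads as counts, so they are approximate. The code for these intervals was tested on simulated Poisson reads. Locus starts were given counted from 1. All 45 members are described. From each other pathway list, the 4 genes with the largest absolute log2 ratio among those with at least 1 RPKM were named. The members, lists and rules were chosen with earlier results of these data known. Python 3.11.15, pandas 2.3.3 and scipy 1.17.1 were used.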

Additional observations from a re-analysis of the deposited data

How the results depend on the processing

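No single member changed the sign of its log2 ratio under the alternatives apart from Fzd8, at 0.005 on the TPM scale (with either filter) and 0.02 after centring on the median of all genes, and Ryk, at -0.15 with its highest transcript row. The count of members at least 1.5-fold lower was 2 with a pseudocount of 0.1 and 2 on the TPM scale (Wnt2 and Fzd10), and at least 2-fold lower 1 in both (Wnt2, log2 ratios of -1.07 and -1.02), against 0 in the main setting. TPM values were first filtered at 1 TPM. After that result was seen, the planned setting was given the main gene set, so that it changes the scale but not the genes. Summed RPKM was 106908 in the mutant and 110357 in the control, so the 1 TPM added is worth much less than 1 RPKM. The TPM scale therefore also lowers the pseudocount, and is not a check apart from the setting with 0.1. The first form is kept as a setting added after seeing the data. It tested 34 members, of which 3 (Wnt6, Fzd5 and Lgr6) were at least 1.5-fold higher and 6 lower, 2 at least 2-fold higher and 4 lower, and its medians were -0.22 for all members, -0.58 for ligands and 0.47 for Lgr receptors. Medians within 0.1 of the main value are not listed. With a pseudocount of 0.1 the median of the ligands was -0.46 and of the R-spondins -0.31, and on the TPM scale that of the ligands was -0.41. Without the filter these medians were 0 and -0.059, and that of the Lgr receptors 0.36. With a filter of 5 RPKM, which left 11 members, the medians were 0.033 for all members, 0.15 for ligands, 0.31 for R-spondins, -0.27 for Lrp co-receptors and 0.033 for Ror and Ryk, each on fewer genes. The intervals were not recomputed on the TPM scale or after centring. Half-sized reads gave 6 intervals above 1 and 8 below 1. The highest transcript row of each gene, by RPKM summed over both libraries, gave 4 above 1, with Fzd6 added, and the same 7 below 1. With reads doubled in size, 2 lay above 1 (Rspo3 and Lgr4) and 3 below 1 (Fzd2, Lrp6 and Sostdc1), so Wnt2, Fzd10, Fzd3, Ror1 and Ror2 included 1. Reads from an effective length were not used, since low values did not come out whole more often in both libraries. No paired analysis was possible because each genotype has 1 library. The depth of the control limits folds below about 1 RPKM.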
